A study of Mus musculus with 24 samples.

Results

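The transcriptome of splenic NK cells was compared between mice that had carried RMA-KR tumors for 14 days and control mice. The comparison used 7 of the 24 bulk RNA-seq samples of the series, chosen by their titles: the 3 late RMA-KR libraries and the 4 control libraries. RMA is a T cell lymphoma line of C57BL/6 origin. RMA-KR cells were made from it by knocking out B2m with CRISPR-Cas9, transducing the cells with a lentivirus for ZsGreen and the NKG2D ligand Rae1-β, and cloning by limiting dilution, so that the tumor is 1 clone. The series followed NK cells at an early, an intermediate and a late time after intravenous injection of RMA or RMA-KR cells, which grow in the spleen. The question put to the samples described here is how NK cells that have been with a ligand-bearing, MHC class I-deficient tumor for the longest time sampled differ in expression from NK cells of mice without a tumor.

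All 7 libraries came from NK cells of wild-type C57BL/6J mice and were sorted from spleen as cells stained by antibodies to NKp46 and NK1.1 in the same color, so that either marker sufficed, and negative for CD3, CD5 and the TCR, among others. The late RMA-KR group was collected on day 14 after injection of RMA-KR cells, and the control group was not treated. The study used female mice except where it states otherwise. The study counts the replicates of its late groups and controls as mice, but the number of mice per group that it states differs from the number of control libraries, and the labels name no mouse for a library. The p-values measure the spread between libraries within the 7 groups of the series, since all 24 libraries were fitted together. The control libraries held between 5138651 and 10562991 counts assigned to genes, and the late RMA-KR libraries between 10293704 and 14863500. Levels are given as normalized CPM, that is, counts scaled to a common library total with edgeR's TMM factors. A gene was called higher or lower where edgeR's quasi-likelihood test gave an adjusted p under 0.05 (Benjamini-Hochberg over the 17097 genes tested) and the fold change was above 2, and all adjusted p-values come from this test unless another is named.

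NK cells are lymphocytes that kill without a rearranged antigen receptor, and their response is set by the balance of activating receptors, such as NKG2D for stress ligands of the Rae1 family, and inhibitory receptors for self MHC class I. A cell that has lost B2m shows almost no classical MHC class I and gives NK cells little inhibition, while a Rae1 ligand engages NKG2D directly. Lymphocytes that stay in contact with such targets are known to divide and to express checkpoint receptors such as TIGIT, LAG-3 and TIM-3, and their ability to respond can decline.

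Before the results, 4 features of the libraries bear on how they can be read. RMA-KR late 3 stood apart from RMA-KR late 1 and 2: the correlation of log levels across genes was 0.913 and 0.916 with them, against 0.956 between these 2 and 0.95 to 0.965 among the controls. In RMA-KR late 3, 85 genes were at 0 that had at least 5 CPM in each of the other 6 libraries, while this number was between 0 and 2 in the other libraries. Fewer genes had any count in late RMA-KR (18509, 16588 and 16385) than in the controls (23111, 19370, 19446 and 27820). Ribosomal RNA took 0.0956%, 0.061% and 0.0538% of the counts in late RMA-KR and 0.318%, 0.227%, 0.272% and 0.162% in the controls. Their part in the results was not tested.

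The NK cell label was checked against marker genes. The summed level of 14 NK cell markers lay between 26670 and 38740 normalized CPM in the controls and between 26260 and 32320 in late RMA-KR, with Gzma, a granzyme, the most abundant, and none of the 14 was called. Of the 14, 4 were positive and 10 negative, with a median log2 fold change of −0.26, against −0.18 over all genes tested. In 2 of them every late library lay below every control (14.3% against 7.73% of all genes). Genes of the T cell and RMA lymphoma list went both ways: Cd3e was at 0 in controls 1 to 3 and at 5.00 in control 4, and at 0, 0.562 and 0.0964 in RMA-KR late 1 to 3, and Cd4 was at 0 in every RMA-KR library. Trac and Thy1 had every late library above every control, at 4.99 to 13.3 in controls and 14.9 to 19.9 in late RMA-KR for Trac and at 11.7 to 25 and 25.3 to 58.5 for Thy1, and neither was called. The 16 genes of this list summed to 467 to 589 in the controls and 546.5 to 716 in late RMA-KR, and Trbc1, a T cell receptor constant gene, was the most abundant. Of the 16 B cell markers, which summed to 251 to 479 in controls and 416.5 to 509 in late RMA-KR, the most abundant was Ighm. The 16 granulocyte markers summed to at most 4.38 in any of the 7 libraries and the 10 platelet markers to at most 7.95. Plasma cell genes were uneven: the 15 markers summed to 439 to 641 in controls and to 765, 1117 and 534 in RMA-KR late 1 to 3, with Ighm the most abundant, and Igkc was at 1.25, 134 and 26.3 and Ighg2b at 1.96, 116 and 0 in these 3, with Sdc1 at 0 in each. Igkc and Ighg2b were thus highest in RMA-KR late 2. Jchain was at 0, 0, 1.16 and 2.5 in the controls and 2.40, 17.7 and 13.8 in the RMA-KR libraries. Of the 10 plasma cell markers tested 9 were positive, with a median log2 fold change of 3.69, or 3.31 with genes that had no count in a group set at their bound, the highest of all lists, and none was called. The part of such transcripts in the result was not tested.

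In the remaining marker lists with high sums, 1 gene held most of the sum, and several other markers were at or near 0. The 12 stromal and endothelial markers summed to 107 to 135 in controls and 312 to 443 in late RMA-KR, nearly all of it the adhesion molecule Pecam1, while Kdr was at 0, 2.95 and 0 and Cdh5 at 0, 0 and 0.964 in RMA-KR late 1 to 3. The red blood cell markers summed to 335 to 486 in controls and 753 to 974 in late RMA-KR, nearly all of it the carbonic anhydrase Car2, while the globin genes Hbb-bs and Hba-a1 were at most 0.316 in each of the 7 libraries. The 20 macrophage and monocyte markers summed to 971 to 1193 in controls and 1608 to 1935 in late RMA-KR, and their most abundant gene was the chemokine receptor Ccr2, with Csf1r, C1qa and Adgre1 at 0 in all 3 RMA-KR libraries. Cd68 of this list was at 15.9, 11.3, 8.74 and 8.66 in the controls and 78.0, 59.4 and 36.2 in RMA-KR late 1 to 3, without overlap and not called (adjusted p = 0.179), and Lyz2 reached 11.03 in RMA-KR late 2. In the other direction Cd163 was at 6.28, 14.6, 12.9 and 9.20 in the controls and 3.29, 3.87 and 0 in the RMA-KR libraries, also without overlap and not called (adjusted p = 0.404). Of the 11 tested genes of this list 5 were positive and 6 negative, with a median log2 fold change of −0.96. Itgax led the 14 dendritic cell markers, which summed to 424.5 to 687 in controls and 820.0 to 961 in late RMA-KR, and Clec9a was at 0 in all 3 RMA-KR libraries. The 10 markers of ILC1, group 1 innate lymphoid cells that the same surface antigens can mark, summed to 32.9 to 202 in controls and 36.1 to 88.8 in late RMA-KR. Apart from Pecam1 and Car2, no gene of these lists was called. In such bulk samples, fewer cells of a type and less RNA per cell cannot be told apart.

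Late RMA-KR and control NK cells differed in 168 of the 17097 genes tested (0.983%). Of these, 123 were higher (0.719%) and 45 lower (0.263%) in late RMA-KR. The raised genes included many mitotic genes, the secreted phosphoprotein Spp1, the serpin Serpine2, Tigit and the integrin chain Itgad. With DESeq2's default settings the numbers were 237 higher and 246 lower, so the excess of raised genes depended on the method. The lowered genes included adhesion and surface proteins such as Cdh22, Sdc4, Mcam and Ly6c2, adaptors of receptor signaling, and chromatin and growth regulators. Genes of these kinds were also raised, such as Itgad, Pecam1 and the adaptor Sh2d2a. Whether any kind was more frequent among the lowered genes was not tested. The median log2 fold change was 2.22 over the genes called higher and −1.52 over those called lower, against −0.18 over all genes tested.

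The genes called lower had more reads in the controls, a measure that also depends on gene length. Their median control level was 126 normalized CPM, against 21.4 for the genes called higher. A gene with few reads in the controls can hardly be called lower but can be called higher, so this difference is partly set by the calling rule. When all tested genes were put in 4 groups of equal size by mean level, from the lowest to the highest, 0, 3, 51 and 69 genes were called higher and 0, 2, 11 and 32 called lower. All 123 genes called higher had every RMA-KR library above every control, an order that 1006 of all tested genes showed (5.88%). Of the 45 genes called lower, 44 had every RMA-KR library below every control, which held for 1321 of all genes (7.73%). The exception was the phosphate transporter Slc20a1, for which RMA-KR late 1, at 168 normalized CPM, lay above control 2, at 166. Protein-coding genes made up 122 of the genes called higher and 43 of those called lower.

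**Figure D1:**
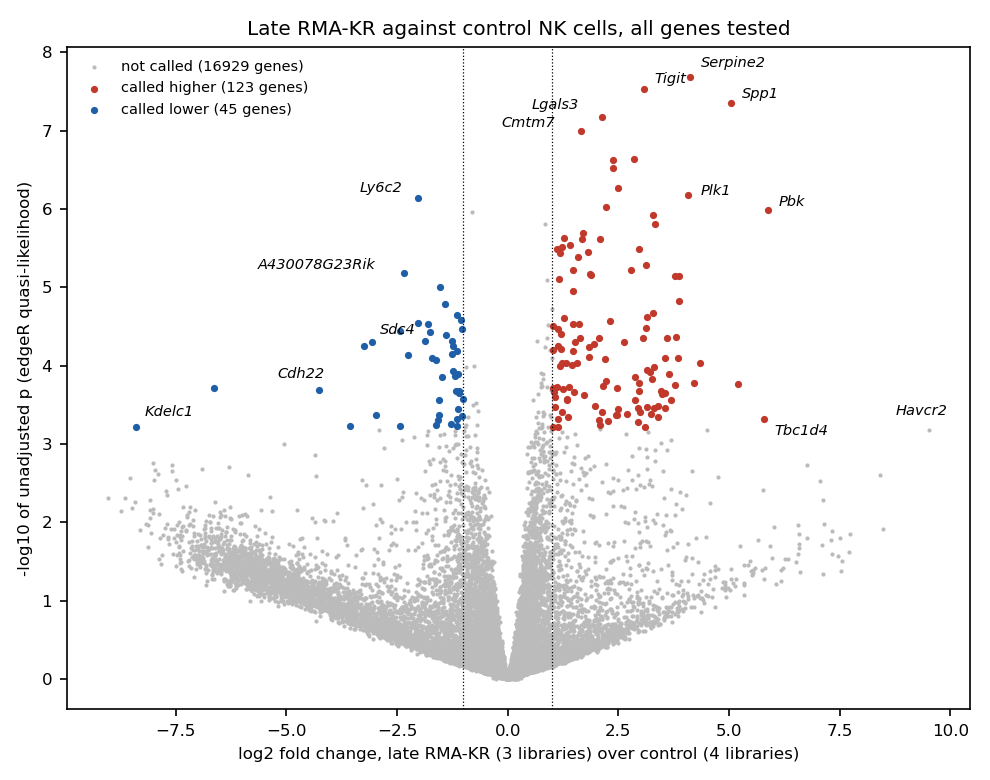
Log2 fold change of late RMA-KR (3 libraries) over control (4 libraries) on the x axis and −log10 of the unadjusted edgeR quasi-likelihood p on the y axis for each of 17097 genes, with 123 called higher in red, 45 called lower in blue and dotted lines at a fold change of 2. Serpine2, Tigit and Spp1 have the smallest p among raised genes and Ly6c2 among lowered genes, and the grey points at large negative values are genes with few counts.

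Many of the calls were lost when 1 library was left out. Without RMA-KR late 3, 152 genes were called, of which 129 were higher and 23 lower, and these included 99 of the 123 raised and 17 of the 45 lowered genes. Leaving out RMA-KR late 2 gave 84 higher and 58 lower. The fit without control 1 gave 83 higher and 28 lower, and the fits without controls 2, 3 and 4 gave 51 and 20, 71 and 25, and 58 and 29. Leaving out RMA-KR late 1 gave 64 and 20. In each of these 7 fits 37 raised genes and 5 lowered genes were called: Tespa1, Arl4d, Fem1a, Ly6c2 and A430078G23Rik. RMA-KR late 3 had the lowest level of the 3 late libraries in 21 of the 45 lowered genes, RMA-KR late 1 in 18 and RMA-KR late 2 in 6. For the 123 raised genes, RMA-KR late 2 was the highest in 66, RMA-KR late 1 in 32 and RMA-KR late 3 in 25. A fit of only the 7 libraries kept 71 of the 123 raised and 16 of the 45 lowered genes. Among the lowered genes not called in it are Arhgap4, Arl4c, Cbx7, Cd226, Cdh22, Cnpy3, Dalrd3, Fem1a, Hist1h1e, Hnrnph1, Hnrnph3, Kcnj8, Kdelc1, Lasp1, Lrba, Mcam, Mylip, Nek1, Notch2, Pag1, Prag1, Rabac1, Rap1gap2, Rps13, Scd2, Sdc4, Slc20a1 and Zgpat. For most genes the libraries whose omission ended the call are given with it. Such a fit has fewer libraries and tested between 16616 and 20183 genes, against 17097 in the main fit. A lost call therefore does not show that the omitted library carried it. The genes named outside the naming rule of the processing, and therefore after their values were seen, are Arl4c, Arl4d, Cbx7, Cnpy3, Dalrd3, Hnrnph3, Mcam, Mylip, Notch2, Pag1, Prag1, Rabac1, Rap1gap2, Slc20a1, Sppl2b, Styk1, Tespa1 and Zgpat among the lowered and Asf1b, Cmtm7, Dck, Etfb, Gm4956, Itgb3, Kcnn4, Kif11, Map4k1, Pecam1, Ripk3, Top2a and Ugt1a7c among the raised genes.

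Several lowered genes encode surface proteins for adhesion, ion transport and contact with other cells, and so do some raised genes. Ly6c2 encodes Ly6C, a GPI-anchored protein carried by subsets of lymphocytes and monocytes, and lies on chromosome 15 from 75108158 to 75111970 of the mouse genome build mm10. Its level was 341, 472, 570.4 and 406 normalized CPM in controls 1 to 4 and 76.4, 147 and 107 in RMA-KR late 1 to 3. The groups did not overlap, and the call held in each fit that left out a library. The log2 fold change was −2.02 (adjusted p = 0.00113, SE 0.30). The Ly6 genes are a family of similar copies, and the counting used only reads that fit 1 gene, so levels within the family are uncertain.

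Cdh22 encodes cadherin 22, a calcium-dependent adhesion protein, on chromosome 2 from 165111507 to 165234853. It was measured at 58.03, 74.2, 78.5 and 37.7 in the controls and 0.0890, 9.42 and 0 in the RMA-KR libraries, so that RMA-KR late 2 held nearly all of what was left of it. The log2 fold change was −4.26 (adjusted p = 0.0264, SE 0.97), and −3.65 without RMA-KR late 3. Without RMA-KR late 2 the late group held 1 count against 2250 in the controls, a depth-adjusted ratio of 1330 with a 95% counting interval of 239 to 52700, and no exact fold can be given. The call was lost when controls 1, 2 or 3 or RMA-KR late 1 was left out (adjusted p up to 0.0833). Kcnj8 encodes Kir6.1, a pore subunit of ATP-sensitive potassium channels, and was at 156, 257, 245 and 193 in the controls and 9.79, 44.2 and 0 in the RMA-KR libraries. All late values were below all controls, and RMA-KR late 3 had no count. Its log2 fold change was −3.55 (adjusted p = 0.0496, SE 0.89), or −5.40 with RMA-KR late 2 left out and −2.93 with RMA-KR late 3 left out, and the call was lost when controls 1, 2, 3 or 4 or RMA-KR late 1 was left out (adjusted p up to 0.288).

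Syndecan-4, a heparan sulfate proteoglycan that binds matrix and growth factors, is encoded by Sdc4. Its levels were 21.1, 74.8, 59.4 and 45.5 in the controls and 1.69, 2.53 and 13.8 in the RMA-KR libraries. RMA-KR late 3 was the highest late library and still lay below the lowest control. Sdc4 fell, with a log2 fold change of −3.07 (adjusted p = 0.0117, SE 0.62) that was −4.52 without RMA-KR late 3. The call was lost without RMA-KR late 1 (adjusted p = 0.0652) or RMA-KR late 2 (adjusted p = 0.0638). Mcam, the adhesion molecule CD146, was at 244 ± 48.9 (SD, n = 4) in controls and 73.97 ± 37.6 (SD, n = 3) in late RMA-KR, a log2 fold change of −1.72 (adjusted p = 0.0151, SE 0.36), with the call lost when controls 2 or 3 or RMA-KR late 2 or 3 was left out (adjusted p up to 0.0983).

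Cd226 encodes DNAM-1, an activating receptor that binds CD155 and CD112, the ligands it shares with TIGIT. The levels of Cd226 were 85.2, 113, 64.2 and 115 in the controls and 25.3, 55.2 and 14.3 in the RMA-KR libraries. No late library reached the lowest control, although RMA-KR late 2 came close to it. Cd226 fell, with a log2 fold change of −1.58 (adjusted p = 0.0445, SE 0.39), or −2.22 without RMA-KR late 2, and the call was lost when controls 1, 2 or 4 or RMA-KR late 1 or 3 was left out (adjusted p up to 0.221). In the same libraries Tigit rose, with levels of 81.7, 66.7, 128 and 61.2 in the controls and 1274, 391 and 484 in the RMA-KR libraries and a log2 fold change of 3.08 (adjusted p = 0.000251, SE 0.38), or 2.36 without RMA-KR late 1. Notch2, a receptor for Notch ligands on neighboring cells, went from 97.3 ± 17.6 (SD, n = 4) to 42.6 ± 10.8 (SD, n = 3), with a log2 fold change of −1.19 (adjusted p = 0.0209, SE 0.26). Its call was lost when controls 2 or 3 or RMA-KR late 2 or 3 was left out (adjusted p up to 0.145).

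Some lowered genes encode proteins of lymphocyte receptor signaling, and so do some raised genes. Tespa1, a protein of antigen receptor signaling described in thymocytes, was at 99.8, 102, 108 and 101 in the controls and 50.03, 39.9 and 25.1 in the RMA-KR libraries. The 4 controls were nearly equal and each late library was below every control. Its log2 fold change was −1.42 (adjusted p = 0.0066, SE 0.26), and it kept its call in each fit that left out a library. Pag1, a transmembrane adaptor that brings the inhibitory kinase Csk to the membrane, was at 38.8, 52.9, 74.9 and 65.5 in the controls and 7.39, 22.6 and 21.4 in the RMA-KR libraries, with RMA-KR late 1 the lowest. The log2 fold change of Pag1 was −1.76 (adjusted p = 0.0106, SE 0.35), not called without RMA-KR late 1 (adjusted p = 0.0621). Styk1, a receptor-like pseudokinase, was at 159.7, 182, 179 and 189 in the controls and 87.7, 79.1 and 93.2 in the RMA-KR libraries. The fold change of Styk1 on the log2 scale was −1.03 (adjusted p = 0.0102, SE 0.20) and was not called without RMA-KR late 2 (adjusted p = 0.0615).

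Some lowered genes act with small GTPases, and so do some raised genes. Arl4d and Arl4c encode ARF-like GTPases that recruit cytohesins to the plasma membrane. Arl4d was at 160.1, 266, 185 and 342 in the controls and 93.03, 79.3 and 77.2 in the RMA-KR libraries, with a log2 fold change of −1.52 (adjusted p = 0.00435, SE 0.27). Its late libraries were close to each other, and the call held in each fit that left out a library. For Arl4c, the levels were 112, 145, 122 and 196 in the controls and 35.9, 77.9 and 67.5 in the RMA-KR libraries and the log2 fold change was −1.25 (adjusted p = 0.0143, SE 0.26), not called without control 4 (adjusted p = 0.059) or RMA-KR late 1 (adjusted p = 0.101). Rap1gap2, a GTPase-activating protein for Rap1, went from 261 ± 60.1 (SD, n = 4) to 118 ± 24.4 (SD, n = 3), with a log2 fold change of −1.15 (adjusted p = 0.0131, SE 0.23) that was not called without RMA-KR late 1 (adjusted p = 0.0847) or RMA-KR late 3 (adjusted p = 0.089). Arhgap4, also a GTPase-activating protein, changed by −1.10 (adjusted p = 0.0269, SE 0.25) and was not called when controls 1, 2 or 4 or RMA-KR late 1 or 3 was left out (adjusted p up to 0.136). Exons of Avpr2 on the other strand cover 29.0% of its exon bases, and the sources do not state whether reads were counted by strand, so the level of Arhgap4 is uncertain. Lasp1, an actin-binding LIM and SH3 protein, was at 654, 624, 576 and 681 in the controls and 138, 373 and 344 in the RMA-KR libraries. It changed by −1.15 (adjusted p = 0.0439, SE 0.28) and was not called when controls 1, 2, 3 or 4 or RMA-KR late 1 or 3 was left out (adjusted p up to 0.212).

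**Figure D2:**
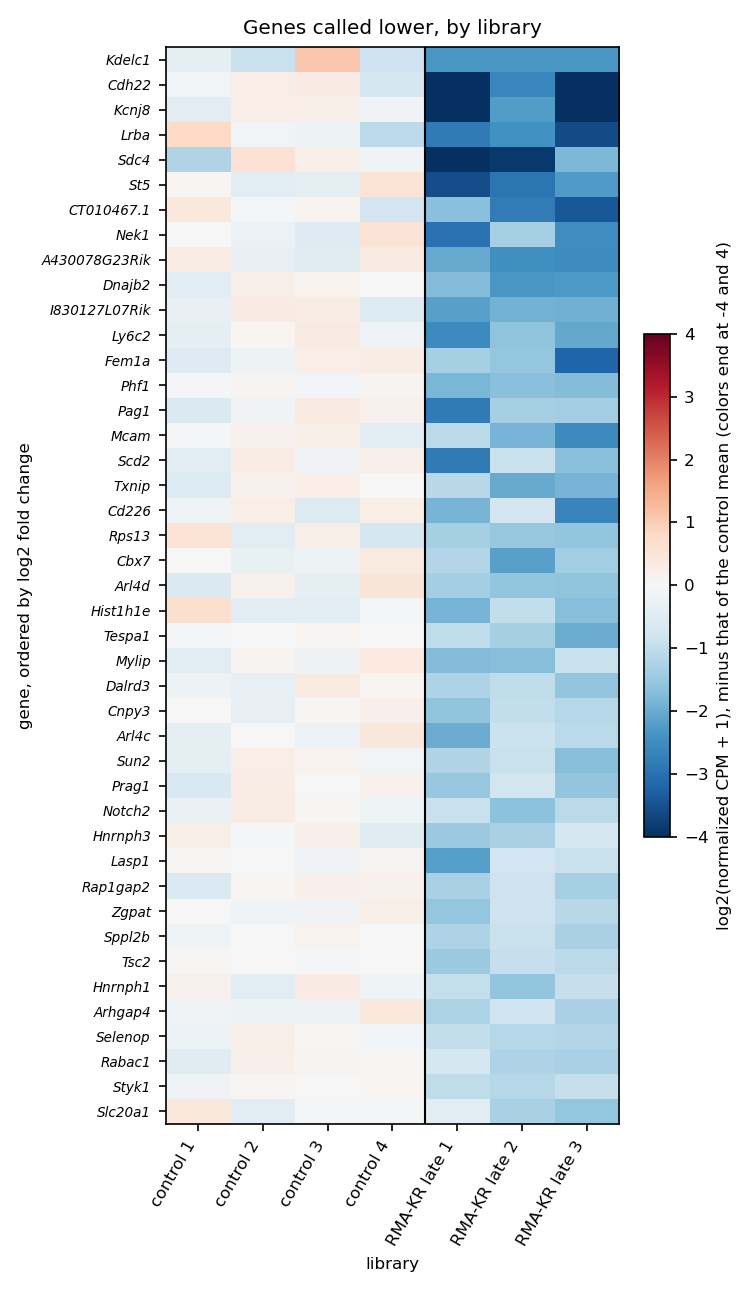
Heat map of genes called lower, most of the 45 (vertical axis, ordered by log2 fold change) in the 4 control and 3 late RMA-KR libraries (horizontal axis), colored by log2 of normalized CPM plus 1 minus that of the control mean, with colors ending at −4 and 4. The late columns are blue throughout, and the darkest cells differ between libraries, as for Sdc4 (1.69, 2.53 and 13.8 normalized CPM in RMA-KR late 1 to 3) and Fem1a (31.1, 26.5 and 7.71).

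A few lowered genes are known for growth restraint or metabolism. The list of 36 quiescence and growth restraint genes went both ways, with 18 positive and 18 negative. Txnip encodes an inhibitor of thioredoxin that also limits glucose uptake, and its levels were 649.6, 1057, 1121 and 939 in the controls and 433, 233 and 259.7 in the RMA-KR libraries. An antisense gene covers 19.4% of its exon bases, and its level is uncertain. Every late library was below every control. Its log2 fold change was −1.61 (adjusted p = 0.0153, SE 0.34), and it was not called when controls 2 or 3 or RMA-KR late 2 or 3 was left out (adjusted p up to 0.0881). Tsc2, which with Tsc1 holds mTORC1 in check through the GTPase Rheb, was at 130.5, 128, 123 and 124 in the controls and 44.6, 66.9 and 61.2 in the RMA-KR libraries. The controls of Tsc2 lay within a narrow range and none of the late libraries reached it. The log2 fold change of Tsc2 was −1.13 (adjusted p = 0.02, SE 0.25), not called when control 2 or RMA-KR late 1 or 3 was left out (adjusted p up to 0.133). Scd2, a stearoyl-CoA desaturase of fatty acid synthesis, was at 87.05, 148, 108 and 137 in the controls and 16.2, 63.7 and 36.6 in the RMA-KR libraries, with a log2 fold change of −1.63 (adjusted p = 0.0492, SE 0.41), not called when controls 1, 2, 3 or 4 or RMA-KR late 1 or 3 was left out (adjusted p up to 0.234). Mylip, also named Idol, a ubiquitin ligase that marks the LDL receptor for degradation, went from 256 ± 65.5 (SD, n = 4) to 97.7 ± 34.5 (SD, n = 3), with a log2 fold change of −1.39 (adjusted p = 0.0113, SE 0.28), and was not called without RMA-KR late 1 (adjusted p = 0.0822) or RMA-KR late 2 (adjusted p = 0.0696). Selenop, the selenium carrier selenoprotein P, changed by −1.10 (adjusted p = 0.0266, SE 0.25), is overlapped over 15.4% of its exon bases by Ccdc152 on the other strand and is uncertain, and lost its call when controls 2, 3 or 4 or RMA-KR late 1, 2 or 3 was left out (adjusted p up to 0.135).

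A few lowered genes encode chromatin or nuclear proteins, and so do some raised genes. Cbx7, a Polycomb protein of PRC1 that binds methylated histone H3, was at 108, 86.4, 90.9 and 136 in the controls and 46.03, 22.7 and 39.4 in the RMA-KR libraries. Its groups did not overlap, and its log2 fold change was −1.55 (adjusted p = 0.0313, SE 0.36). The call was lost in all 7 fits with 1 library omitted (adjusted p from 0.0557 to 0.183). Phf1, a Polycomb-like partner of PRC2, was at 61.7, 70.2, 60.6 and 70.3 in the controls and 17.7, 20.03 and 19.2 in the RMA-KR libraries, values that were nearly equal within each group. The log2 fold change of Phf1 was −1.79 (adjusted p = 0.00957, SE 0.34), not called without RMA-KR late 1 (adjusted p = 0.0565). Exons of Cuta on the other strand cover 39.3% of its exon bases, so the level of Phf1 is uncertain. Hist1h1e, a linker histone gene of a family of similar copies, changed by −1.49 (adjusted p = 0.0209, SE 0.33), not called when control 1 or RMA-KR late 1 or 3 was left out (adjusted p up to 0.132), and shares 25.7% of its exon bases with Hist1h2be, so its level is uncertain. Sun2, a nuclear envelope protein that couples the nucleus to the cytoskeleton, went from 424 ± 80.7 (SD, n = 4) to 179.9 ± 48.8 (SD, n = 3), with a log2 fold change of −1.24 (adjusted p = 0.0124, SE 0.25). Its call was lost when control 2 or RMA-KR late 1 or 3 was left out (adjusted p up to 0.0938).

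Low counts limit what can be said of the largest fitted decrease. Kdelc1, a glycosyltransferase of the endoplasmic reticulum, had 0 counts in late RMA-KR and 147 in the controls, at least 48.2-fold lower when the floor is set at 3 counts over the late group, and at least 24.4-fold lower without control 3. Its control libraries ran from 1.74 to 9.69 normalized CPM. Intervals and floors given here cover counting error only. Kdelc1 was called, with an adjusted p of 0.0496, and lost the call in all 7 fits with 1 library omitted, where the adjusted p reached 0.181.

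Other lowered genes of large change were Lrba, a BEACH-domain protein of vesicle traffic that protects CTLA-4 from degradation, St5, a DENN-domain regulator of Rab GTPases, and the kinase Nek1. Lrba was at 46.02, 24.02, 22.4 and 12.1 in the controls and 2.85, 4.08 and 1.25 in the RMA-KR libraries, all late values below all controls. The log2 fold change of Lrba was −3.25 (adjusted p = 0.0124, SE 0.66), not called without RMA-KR late 1 (adjusted p = 0.0673) or RMA-KR late 3 (adjusted p = 0.0676). St5 changed by −2.97 (adjusted p = 0.0414, SE 0.72) and Nek1 by −2.42 (adjusted p = 0.0496, SE 0.61), or by −3.29 without RMA-KR late 2. The call of St5 was lost in all 7 fits with 1 library omitted (adjusted p from 0.0676 to 0.197), and that of Nek1 when controls 1, 2, 3 or 4 or RMA-KR late 1 or 3 was left out (adjusted p up to 0.27). Fem1a, a substrate receptor of a cullin ubiquitin ligase, changed by −1.88 (adjusted p = 0.0116, SE 0.38) and A430078G23Rik by −2.34 (adjusted p = 0.00343, SE 0.41), and both kept their calls in each fit that left out a library. Dnajb2, a co-chaperone of Hsp70, changed by −2.25 (adjusted p = 0.0143, SE 0.47) and lost its call without RMA-KR late 2 (adjusted p = 0.089) or RMA-KR late 3 (adjusted p = 0.0823). I830127L07Rik, a transcribed pseudogene next to Ly6c2 in the Ly6 cluster of chromosome 15, changed by −2.04 (adjusted p = 0.00957, SE 0.39), not called without RMA-KR late 1 (adjusted p = 0.0565), and its reads may be shared with its relatives.

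A ribosomal RNA gene had the most reads of the lowered genes. CT010467.1, annotated as rRNA on chromosome 17 from 39846353 to 39848827, was at 2244, 1641, 1883 and 1005 in the controls and 532, 243 and 160.3 in the RMA-KR libraries, with a log2 fold change of −2.44 (adjusted p = 0.0104, SE 0.48), or −3.08 without RMA-KR late 1. It overlaps another annotated gene over 73.9% of its exon bases, and the authors discarded reads that matched ribosomal RNA, so that its level is uncertain. It is part of the ribosomal RNA shares of the libraries given earlier. The call was lost without RMA-KR late 2 (adjusted p = 0.0522) or RMA-KR late 3 (adjusted p = 0.057). RNA-binding proteins among the lowered genes were Hnrnph1, a splicing factor, which went from 394 ± 88.7 (SD, n = 4) to 180.1 ± 42.2 (SD, n = 3) with a log2 fold change of −1.13 (adjusted p = 0.0375, SE 0.27), and its relative Hnrnph3, which changed by −1.16 (adjusted p = 0.0266, SE 0.27). Hnrnph1 lost its call in all 7 fits with 1 library omitted (adjusted p from 0.0502 to 0.2) and Hnrnph3 when controls 1, 2 or 3 or RMA-KR late 1 or 2 was left out (adjusted p up to 0.191).

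Further lowered genes were Rps13, Dalrd3, Cnpy3, Prag1, Zgpat, Sppl2b, Rabac1 and Slc20a1, with log2 fold changes between −1.55 for Rps13 and −1.01 for Slc20a1. Among them were Cnpy3, a chaperone of Toll-like receptors (−1.25, adjusted p = 0.0116), Zgpat, a zinc finger repressor (−1.14, adjusted p = 0.0086), and the pseudokinase Prag1 (−1.23, adjusted p = 0.019). Cnpy3 was not called without RMA-KR late 1 (adjusted p = 0.106), Zgpat without RMA-KR late 1 (adjusted p = 0.0678) and Prag1 when controls 2 or 4 or RMA-KR late 1 or 3 was left out (adjusted p up to 0.122). Zgpat shares 37.9% of its exon bases with Lime1 on the same strand and is uncertain. Rabac1 was not called when control 2 or RMA-KR late 2 or 3 was left out (adjusted p up to 0.0739), and Slc20a1 when controls 1, 3 or 4 or RMA-KR late 2 or 3 was left out (adjusted p up to 0.203). Dalrd3 is overlapped over 15.6% of its exon bases by Wdr6 on the other strand and is uncertain. Dalrd3 and Sppl2b were not called in any of the 7 fits with 1 library omitted.

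Below a fold change of 2, a further 40 genes passed the adjusted p, 29 higher and 11 lower, and those named here were chosen after their values were seen. The cysteine protease cathepsin W, whose gene Ctsw is expressed in NK and cytotoxic T cells, had the smallest p among all lowered genes after Ly6c2. Ctsw was at 1749, 1769, 2124 and 1907 in the controls and 959.5, 1192 and 1092 in the RMA-KR libraries, with no overlap between groups, and its log2 fold change was −0.80 (adjusted p = 0.00135, SE 0.12). Dock11, an activator of Cdc42, was at 279, 278, 278 and 317 in the controls and 183, 96.97 and 156 in the RMA-KR libraries, with a log2 fold change of −0.98 (adjusted p = 0.0423, SE 0.24). Others on the lowered side were Samd3 (−0.68, adjusted p = 0.04), the transcription factor Sp3 (−0.72, adjusted p = 0.0338), the RNA helicase Ddx3x (−0.90, adjusted p = 0.0423) and Dlst, a subunit of the oxoglutarate dehydrogenase complex (−0.95, adjusted p = 0.0492). On the raised side, the chemokine receptor Ccr2 changed by 0.69 (adjusted p = 0.0277, SE 0.16), the membrane-binding Anxa2 by 0.92 (adjusted p = 0.00968, SE 0.18) and the granule proteoglycan Srgn by 0.80 (adjusted p = 0.0219, SE 0.18). The phosphatase Ptpn22 changed by 0.79 (adjusted p = 0.0401, SE 0.19) and the inhibitory receptor Ly49G, encoded by Klra7, by 0.99 (adjusted p = 0.0151, SE 0.21). Klra7 belongs to the Ly49 family of similar genes, and its level is uncertain.

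Raised genes are described by role, beginning with those outside the cell cycle. Of the 123 genes called higher, 62 were in 5 lists of cell cycle genes or carried a Gene Ontology cell cycle term and 61 were in neither. Of the 45 genes called lower, 0 were in these lists and 5 carried such a term. The share of all tested genes that meet this rule is not given, so these counts only sort the called genes. Spp1 encodes osteopontin, a secreted cytokine and matrix protein, on chromosome 5 from 104435118 to 104441050. Its levels were 16.3, 10.5, 24.1 and 5.89 normalized CPM in controls 1 to 4 and 533, 548 and 327 in RMA-KR late 1 to 3. The lowest late library exceeded the highest control many times over, and the log2 fold change was 5.05 (adjusted p = 0.000251, SE 0.63). A further annotated gene on the same strand covers 18.8% of its exon bases, and its level is uncertain.

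Protease inhibitors and granule proteases were among them. Serpine2 encodes protease nexin 1, an inhibitor of thrombin and related proteases, and was at 9.24, 13.6, 7.48 and 1.70 in the controls and 141, 134 and 142 in the RMA-KR libraries. The 3 late libraries were almost equal, and the log2 fold change was 4.12 (adjusted p = 0.000251, SE 0.49). Gzmk, a granzyme, was at 5.91, 11.96, 13.1 and 11.2 in the controls and 67.1, 49.96 and 78.4 in the RMA-KR libraries, without overlap, with a log2 fold change of 2.62 (adjusted p = 0.0116, SE 0.53). Serpinb9b and Serpinb6b belong to families of intracellular serpins that inhibit granule proteases, and reads that fit several members were not counted. Serpinb9b was at 169, 266, 468 and 129 in the controls and 1929, 749.7 and 572 in the RMA-KR libraries, with RMA-KR late 1 far above the rest and RMA-KR late 3 close to control 3. Its log2 fold change was 2.07 (adjusted p = 0.0114, SE 0.41), or 1.34 without RMA-KR late 1, and the call was lost when controls 1 or 4 or RMA-KR late 1 was left out (adjusted p up to 0.155). Serpinb6b changed by 1.22 (adjusted p = 0.00225, SE 0.20), or by 0.85 (adjusted p = 0.0358) without RMA-KR late 1, which ended the call. The lysosomal protease Ctss changed by 1.13 (adjusted p = 0.0496, SE 0.28), not called when controls 1, 2, 3 or 4 or RMA-KR late 1 or 2 was left out (adjusted p up to 0.366). Of the 25 tested genes of cytotoxic granules and serpins, these 5 were called higher and 0 lower, beside 0.719% and 0.263% of all genes, and the list median was 0.27.

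Surface receptors and adhesion molecules followed. Itgad, the integrin αD chain CD11d, was at 30.7, 6.27, 8.64 and 19.5 in the controls and 82.1, 171 and 169.5 in the RMA-KR libraries. The late libraries were all above the controls, and the log2 fold change was 3.12 (adjusted p = 0.00303, SE 0.53). Itgb3, the β3 integrin chain that pairs with αV, was at 5.17, 1.35, 7.48 and 25.6 in the controls and 64.9, 60.1 and 132 in the RMA-KR libraries. Control 4 was the highest control and RMA-KR late 3 the highest late library, and the log2 fold change was 3.10 (adjusted p = 0.0496, SE 0.78), or 4.20 without control 4, not called when controls 1, 2 or 3 or RMA-KR late 1, 2 or 3 was left out (adjusted p up to 0.161). Pecam1, the adhesion molecule CD31, was at 128, 106, 109 and 128 in the controls and 397, 440.4 and 303 in the RMA-KR libraries, with a log2 fold change of 1.69 (adjusted p = 0.00191, SE 0.27). The tetraspan-like membrane protein Cmtm7 was at 118, 132, 95.01 and 109 in the controls and 280.4, 440.4 and 349.8 in the RMA-KR libraries, with narrow spread in the controls and a log2 fold change of 1.65 (adjusted p = 0.000348, SE 0.22).

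Costimulatory molecules were among the raised genes. Cd86, a ligand of CD28 and CTLA-4, was at 0, 4.24, 3.79 and 2.05 in the controls and 84.8, 30.8 and 26.4 in the RMA-KR libraries. It was highest in RMA-KR late 1 and low in the controls. Cd86 had a log2 fold change of 4.20 (adjusted p = 0.0242, SE 0.94), or 3.46 without RMA-KR late 1, not called when controls 2, 3 or 4 or RMA-KR late 1 was left out (adjusted p up to 0.14). Tnfrsf9, the receptor 4-1BB, was at 146, 181, 242 and 199 in the controls and 381, 728 and 547 in the RMA-KR libraries, with a log2 fold change of 1.52 (adjusted p = 0.0116, SE 0.31), not called when controls 1 or 2 or RMA-KR late 2 was left out (adjusted p up to 0.0542). The galactose-binding lectin Lgals3 was at 24.8, 33.3, 28.9 and 22.6 in the controls and 176, 124 and 62.2 in the RMA-KR libraries, all late values above all controls, with a log2 fold change of 2.14 (adjusted p = 0.000291, SE 0.28).

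**Figure D3:**
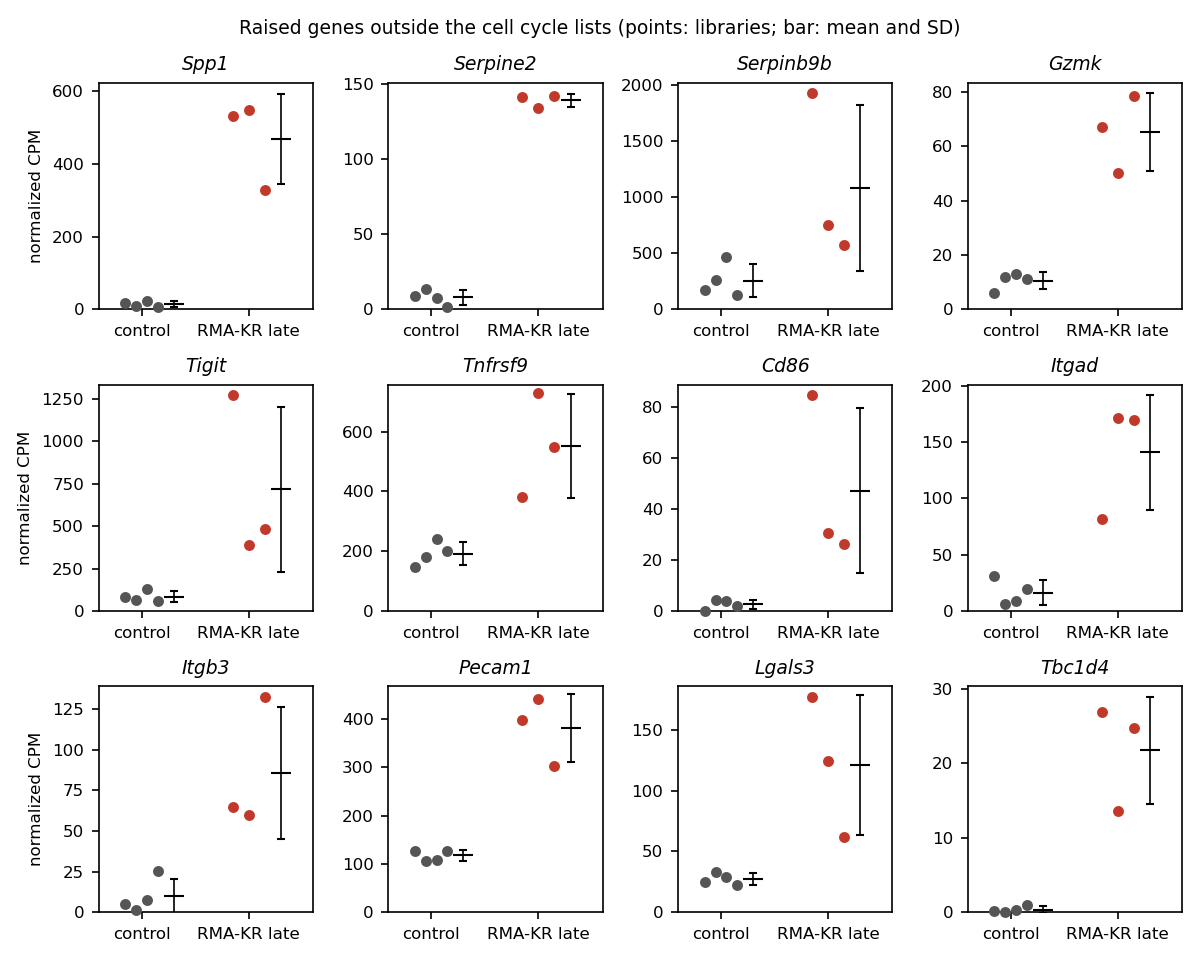
Normalized CPM (vertical axes, linear) of 12 raised genes outside the cell cycle lists in the 4 control libraries (grey) and the 3 late RMA-KR libraries (red), with points for libraries and bars for mean and SD. Serpine2 has the narrowest late spread, 139 ± 4.23 (SD, n = 3), while Tigit (1274, 391 and 484) and Serpinb9b (1929, 749.7 and 572) are highest in RMA-KR late 1.

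Some raised genes act in signaling or metabolism. Tbc1d4, a Rab GTPase-activating protein of glucose transporter traffic, was at 0.185, 0, 0.316 and 0.982 in the controls and 26.9, 13.6 and 24.8 in the RMA-KR libraries, with a log2 fold change of 5.79 (adjusted p = 0.0437, SE 1.42), or 6.94 without control 4, not called in all 7 fits with 1 library omitted (adjusted p from 0.0598 to 0.136). Rgs16, which shortens G protein signaling, changed by 2.71 (adjusted p = 0.0414, SE 0.66), not called when controls 2, 3 or 4 or RMA-KR late 1, 2 or 3 was left out (adjusted p up to 0.132). Kcnn4, a calcium-activated potassium channel of lymphocytes, changed by 2.44 (adjusted p = 0.0414, SE 0.59), not called in all 7 fits with 1 library omitted (adjusted p from 0.0547 to 0.159). Sh2d2a, the T cell-specific adaptor TSAd, was at 538, 426, 540.5 and 670.1 in the controls and 1842, 879 and 1221 in the RMA-KR libraries, and its log2 fold change was 1.27 (adjusted p = 0.002, SE 0.20), not called without RMA-KR late 1 (adjusted p = 0.0243, fold under 2). Map4k1, a kinase that dampens antigen receptor signals, changed by 1.33 (adjusted p = 0.0312, SE 0.31), not called in all 7 fits with 1 library omitted (adjusted p from 0.0509 to 0.12). Lactate dehydrogenase A, Ldha, was at 456, 482, 526 and 544 in the controls and 1050, 1312 and 884 in the RMA-KR libraries and changed by 1.11 (adjusted p = 0.00225, SE 0.18), not called without RMA-KR late 2 (adjusted p = 0.0151, fold under 2). The survival kinase Pim2 changed by 1.48 (adjusted p = 0.00482, SE 0.27) and the growth regulator Myc by 1.13 (adjusted p = 0.0102, SE 0.22), and both kept their calls in each fit that left out a library. Myc was at 57.5, 91.5, 75.0 and 63.03 in the controls and 161, 153 and 158 in the RMA-KR libraries, with the late libraries nearly equal.

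Further raised genes outside the cycle were Capg, an actin-capping protein (1.86, adjusted p = 0.00343), S100a4, a calcium-binding protein (1.5, adjusted p = 0.0268) and the necroptosis kinase Ripk3 (1.03, adjusted p = 0.0496). Capg kept its call in each fit that left out a library. S100a4 lost its call when controls 1, 2 or 4 or RMA-KR late 1 or 2 was left out (adjusted p up to 0.139) and Ripk3 when controls 1, 2, 3 or 4 or RMA-KR late 1 or 3 was left out (adjusted p up to 0.187). S100a4 shares 51.7% of its exon bases with Gm42674, Etfb 53.0% with Gm45233 and Ugt1a7c 51.4% with Ugt1a6a, each on the same strand. The levels of these 3 raised genes are therefore uncertain. Etfb was not called when controls 1, 2, 3 or 4 or RMA-KR late 1 or 2 was left out (adjusted p up to 0.222). The transcription factors Tox and Egr1 changed by 1.03 (adjusted p = 0.0131, SE 0.21) and 1.84 (adjusted p = 0.0151, SE 0.38). Tox was not called when controls 2 or 3 or RMA-KR late 1 was left out (adjusted p up to 0.101), and Egr1 when controls 3 or 4 or RMA-KR late 3 was left out (adjusted p up to 0.103). Gm4956, a transcribed pseudogene on chromosome 1, was at 133, 143, 187 and 136 in the controls and 378, 278 and 362 in the RMA-KR libraries, with a log2 fold change of 1.18 (adjusted p = 0.00233, SE 0.20). Its 3 late libraries were all above the highest control, and its reads may be shared with its parent gene.

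Cell cycle genes were the largest group of raised genes. In 5 lists with 187 tested genes, 49 were called higher and 0 lower, beside 0.719% called higher and 0.263% called lower among all genes. Of 25 mitotic kinase, checkpoint and APC/C genes 10 were called higher, with a list median log2 fold change of 2.88, and of 64 kinetochore, spindle and condensin genes 23, with a median of 2.74. The list of 44 S phase and DNA replication genes had 7 called higher and a median of 1.31, the 38 cyclins, CDKs and E2F genes 8 and 0.94, and the 16 genes of DNA repair in S phase 1 and 2.02. Mitotic lists thus had higher medians than the replication list, and these differences between lists were not tested.

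Plk1 encodes polo-like kinase 1, which drives entry into mitosis. It was at 13.7, 1.83, 4.42 and 3.21 in the controls and 95.5, 136 and 51.3 in the RMA-KR libraries, with all late libraries above all controls and a log2 fold change of 4.07 (adjusted p = 0.00113, SE 0.60), or 4.89 without control 1. Cyclin B2, encoded by Ccnb2, was at 52.7, 12.8, 4.11 and 7.95 in the controls and 257, 266 and 150.3 in the RMA-KR libraries, where control 1 was the highest control. Its log2 fold change was 3.56 (adjusted p = 0.0151, SE 0.75), or 4.75 without control 1, and the call was lost when controls 2, 3 or 4 or RMA-KR late 1 was left out (adjusted p up to 0.0776). Top2a, the topoisomerase that untangles sister chromatids, was at 103, 41.8, 45.6 and 44.02 in the controls and 369.9, 735 and 265 in the RMA-KR libraries, with a log2 fold change of 2.97 (adjusted p = 0.00225, SE 0.49). The ribonucleotide reductase subunit Rrm2, which makes deoxynucleotides in S phase, was at 49.9, 12.2, 22.4 and 9.29 in the controls and 185, 344 and 173 in the RMA-KR libraries. RMA-KR late 2 was the highest library in both genes, and the log2 fold change of Rrm2 was 3.34 (adjusted p = 0.00156, SE 0.52), or 4.00 without control 1. Pbk, a mitotic kinase also named Topk, changed by 5.89 (adjusted p = 0.00135, SE 0.90), or by 4.89 without RMA-KR late 2 and 7.42 without control 3, from at most 1.79 in the controls to 16.9 or more in the late libraries. Not all held as well: Cdk1, the kinase partner of cyclin B, changed by 3.40 (adjusted p = 0.0364, SE 0.81) and lost its call when controls 1, 2, 3 or 4 or RMA-KR late 1 or 2 was left out (adjusted p up to 0.141), and Cenpf, a kinetochore protein, changed by 3.68 (adjusted p = 0.0312, SE 0.86), or 5.99 without control 1, and lost its call when controls 2, 3 or 4 or RMA-KR late 1 or 2 was left out (adjusted p up to 0.124).

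On the replication side, the helicase subunit Mcm6 was at 292, 344, 286 and 243 in the controls and 734, 898 and 429 in the RMA-KR libraries, with a log2 fold change of 1.24 (adjusted p = 0.0263, SE 0.28), not called when controls 1, 2, 3 or 4 or RMA-KR late 1 or 2 was left out (adjusted p up to 0.128). Tyms, which makes thymidylate, changed by 2.13 (adjusted p = 0.0401, SE 0.52), or by 1.43 without RMA-KR late 2, and lost its call when controls 1, 2, 3 or 4 or RMA-KR late 1 or 2 was left out (adjusted p up to 0.296). The deoxycytidine kinase Dck changed by 1.82 (adjusted p = 0.00233, SE 0.30) and the histone chaperone Asf1b by 2.499 (adjusted p = 0.00104, SE 0.36), and both kept their calls in each fit that left out a library. Replication-dependent histone genes, whose transcripts mostly lack a poly(A) tail, had 0 called higher and 1 lower (Hist1h1e) among 42 tested, with a median of 0.21. Of these 42, 25 were positive and 7 had every late library above every control (16.7% against 5.88% of all genes). The libraries were made with an mRNA kit, and these genes are similar copies, so their levels are uncertain. Control libraries also differed from each other in cycle genes: the kinesin Kif11 was at 35.7, 18.4, 21.1 and 5.63 in controls 1 to 4, and Ccna2, not called when controls 2, 3 or 4 or RMA-KR late 1, 2 or 3 was left out (adjusted p up to 0.12), at 51.2, 13.99, 25.4 and 0.804. Mki67, which encodes Ki67, was at 60.8, 13.7, 51.4 and 7.05 in the controls and 243, 334 and 290 in the RMA-KR libraries. Its groups did not overlap, and it was not called.

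The summed level of all tested genes of the 5 lists also separated the groups. It was 8156, 8131, 8380 and 7333 normalized CPM in controls 1 to 4 and 16800, 25370 and 14280 in RMA-KR late 1 to 3. The lowest late library was above the highest control, and RMA-KR late 2 stood above the other late libraries.

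The promoters of these genes were searched for motifs known in late cell cycle genes. The CHR (TTTGAA or TTCGAA) is known to bind the DREAM and MuvB complexes, the CCAAT box (CCAAT) is known to bind NF-Y, and E2F sites (TTTGGCGC, TTTCCCGC, TTTCGCGC or TTTGCCGC) are known in S phase genes. Sequences were taken from RefSeq, build GRCm38.p6, as 250 bases before to 50 bases after each start, and both strands were read, with overlapping matches counted. Of the 49 called genes of the lists, 40 had a promoter in that table. A CHR was found in 20 of them (50%), a CCAAT box in 30 (75%), both in 20 (50%) and an E2F site in 5 (12.5%). Over all 27025 genes with a promoter these shares were 19.4%, 37.9%, 7.7% and 2.32%. Among the 53 raised genes outside the lists with a promoter they were 26.4%, 49.1%, 9.43% and 7.55%, and among 30 of the 45 lowered genes 20%, 36.7%, 10% and 13.3%. A match describes the letters and is no evidence of binding. The 150 bases before the start are shown for the 4 genes with the largest fold change among the 9 list genes that hold both a CHR and a CCAAT box in this window. They lie at chr2:129297213-129297362 on the minus strand for Ckap2l, a spindle protein, chr2:164769779-164769928 on the plus strand for Ube2c, the ubiquitin-conjugating enzyme of the APC/C, chr10:69352913-69353062 on the minus strand for Cdk1, and chr17:24251410-24251559 on the minus strand for Ccnf, cyclin F. Capitals mark the motifs, and matches on the reverse strand read TTCAAA for the CHR and ATTGG for the CCAAT box.
Ckap2l: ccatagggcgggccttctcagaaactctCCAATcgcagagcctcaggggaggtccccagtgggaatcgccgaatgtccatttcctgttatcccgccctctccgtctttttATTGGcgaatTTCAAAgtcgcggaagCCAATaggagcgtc
Ube2c: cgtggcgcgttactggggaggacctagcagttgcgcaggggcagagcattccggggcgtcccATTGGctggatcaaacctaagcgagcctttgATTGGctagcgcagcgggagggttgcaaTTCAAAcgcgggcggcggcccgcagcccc
Cdk1: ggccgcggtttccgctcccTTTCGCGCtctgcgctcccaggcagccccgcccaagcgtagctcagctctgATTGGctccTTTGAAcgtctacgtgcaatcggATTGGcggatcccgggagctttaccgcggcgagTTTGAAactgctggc
Ccnf: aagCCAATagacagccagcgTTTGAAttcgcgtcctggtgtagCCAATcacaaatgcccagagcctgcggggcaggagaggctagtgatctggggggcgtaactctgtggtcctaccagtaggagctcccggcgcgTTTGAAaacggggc
In all 4 the last CHR lay close to the start, at a distance of 25, 24, 10 and 9 bases in this order. Ckap2l changed by 3.86 (adjusted p = 0.0151, SE 0.81), Ube2c by 3.77 (adjusted p = 0.0248, SE 0.84) and Ccnf by 3.31 (adjusted p = 0.0369, SE 0.79). Tnnc2 on the other strand covers 22.8% of the exon bases of Ube2c, whose level is uncertain. Ckap2l was not called without control 2 (adjusted p = 0.0743) or control 3 (adjusted p = 0.0712), Ube2c when controls 1, 2, 3 or 4 or RMA-KR late 1 or 2 was left out (adjusted p up to 0.105) and Ccnf when controls 1, 2, 3 or 4 or RMA-KR late 2 or 3 was left out (adjusted p up to 0.135).

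Calls in NK cell receptor lists are given beside the 0.983% of all genes that were called. Of 32 activating receptors and adaptors 0 were called higher and 1 lower (Cd226), 3.12%, with a median of −0.23, and 7 of them had every late library below every control (21.9% against 7.73% of all genes). The 22 tested Ly49 and NKG2 receptors had 0 called in either direction and the same median of −0.23, with 4 below all controls in this way (18.2%). Among them Klrk1, which encodes NKG2D, was at 2073, 2698, 2643 and 2415 in the controls and 2603, 1549 and 2295 in the RMA-KR libraries, with overlapping groups and a log2 fold change of −0.19 (adjusted p = 0.664, SE 0.18). The natural cytotoxicity receptor NKp46, encoded by Ncr1, was at 2951, 3641, 3679 and 3086 in the controls and 1625, 3036 and 2477 in the RMA-KR libraries, with a log2 fold change of −0.49 (adjusted p = 0.21, SE 0.17). Perforin, Prf1, was at 3140, 4653, 5559 and 3297 in the controls and 4007, 4860 and 2809 in the RMA-KR libraries, with a log2 fold change of −0.10 (adjusted p = 0.903, SE 0.23), and Ifng was at 253, 292, 373 and 59.3 in the controls and 408, 349 and 512 in the RMA-KR libraries, with 0.79 (adjusted p = 0.482, SE 0.52). None of these 4 was called, and the groups overlapped for each. This also held for Cd69, at 502, 189.5, 417 and 60.4 in the controls and 615, 334 and 706 in the RMA-KR libraries. It held as well for Il2rb, which encodes CD122, at 2062, 2260, 2061 and 3134 in the controls and 2224, 3524 and 2622 in the RMA-KR libraries. Another annotated gene on the same strand covers 25.9% of the exon bases of Ifng, and its level is uncertain.

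Inhibitory and checkpoint receptors had 1 call among 19 tested genes, Tigit, with a list median of 0.62, and 6 of the 19 had every late library above every control (31.6% against 5.88% of all genes). Havcr2, which encodes TIM-3, had 1 count over the 4 controls and 1079 over the 3 late libraries, a depth-adjusted ratio of 1100 with a 95% counting interval of 197 to 43400. Its levels were 0, 0.0964, 0 and 0 in the controls and 30.6, 41.1 and 14.5 in the RMA-KR libraries, and the groups did not overlap, but its adjusted p was 0.0525 and it was not called. Havcr2 was called by DESeq2 with default settings, without a filter on low counts and in the fit of only the 7 libraries, and with betaPrior=TRUE its log2 fold change was 1.20 and it was not called. Lag3 was at 11.5, 10.8, 19.6 and 22.1 in the controls and 115, 144 and 109.9 in the RMA-KR libraries, also without overlap, with a log2 fold change of 2.94 (adjusted p = 0.112, SE 0.87), and was called in all 4 of these other settings. Nt5e, which encodes CD73, was at 24.8, 4.44, 15.3 and 12.4 in the controls and 88.2, 10.8 and 50.98 in the RMA-KR libraries, and RMA-KR late 2 lay within the controls. On the log2 scale Nt5e differed by 1.82 (adjusted p = 0.323, SE 0.77). Pdcd1, which encodes PD-1, was not tested because of low counts: it had 1, 0, 0 and 2 counts in controls 1 to 4 and 20, 0 and 0 in RMA-KR late 1 to 3.

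Transcription factors of NK cells had 1 gene called higher, Tox, and 1 called lower among 44 tested, with a median of 0.18. Eomes was at 388, 262, 255 and 319 in the controls and 217, 253 and 305 in the RMA-KR libraries, with overlapping groups and a log2 fold change of −0.24 (adjusted p = 0.583, SE 0.19). Tbx21, which encodes T-bet and is named here after its values were seen, was at 673, 886, 893 and 1032 in the controls and 339, 692 and 532.5 in the RMA-KR libraries, with a log2 fold change of −0.74 (adjusted p = 0.0569). Of 55 interferon-stimulated genes tested, 2 were called higher (Usp18 and Eif2ak2) and 1 lower (Ly6c2), beside 0.719% and 0.263% of all genes, with a median of 0.36, and 11 had every late library above every control (20% against 5.88% of all genes). Usp18, which removes ISG15 from proteins, was at 16.6, 21.7, 55.9 and 23.3 in the controls and 72.2, 108 and 161 in the RMA-KR libraries. It changed by 1.95 (adjusted p = 0.0121, SE 0.39) and was not called when controls 1, 2 or 4 or RMA-KR late 3 was left out (adjusted p up to 0.0586). Eif2ak2, the RNA-sensing kinase PKR, changed by 1.98 (adjusted p = 0.036, SE 0.47), or by 1.41 without RMA-KR late 3, and was not called when controls 1, 2, 3 or 4 or RMA-KR late 3 was left out (adjusted p up to 0.242).

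Calls in housekeeping lists are set beside the same 0.983% of all genes. Cytosolic ribosomal proteins had the lowest median of the pathway lists, −0.39 over 79 genes, with 61 negative, 1 called lower (Rps13, 1.27% of the list) and 28 with every late library below every control (35.4% against 7.73% of all genes). This median was −0.39 with TMM factors and also with DESeq2 size factors, used in edgeR or in DESeq2 with default settings. Rps13 was at 48.8, 24.1, 39.6 and 20.5 in the controls and 12.6, 10.9 and 10.4 in the RMA-KR libraries, with a log2 fold change of −1.55 (adjusted p = 0.0414, SE 0.38), and lost its call when controls 1, 2 or 3 or RMA-KR late 1, 2 or 3 was left out (adjusted p up to 0.172). Ribosomal protein genes have many processed copies in the genome, and reads that fit more than 1 place were not counted, so these levels are uncertain. The 76 mitochondrial ribosomal proteins had 0 calls and a median of 0.03, the 42 proteasome subunits 0 calls and 0.35 with 36 positive, and 22 antigen presentation genes 0 calls and 0.20. Oxidative phosphorylation had 1 call among 91 genes (1.1%), Sdhd (1.13, adjusted p = 0.0124), which was lost without control 1 (adjusted p = 0.0242, fold under 2) or RMA-KR late 1 (adjusted p = 0.0999). Glycolysis had 1 call among 20 genes (5%), Ldha, with a list median of 0.35. The 36 genes of quiescence and growth restraint had 0 called higher and 2 lower (5.56%), Txnip and Tsc2, with a median of −0.02. The actin and myosin cytoskeleton list had 3 called higher and 0 lower among 44 (6.82%) and a median of 0.15. Its largest log2 fold change, 2.14, is that of the lectin Lgals3, so the list is wider than its name.

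Signals between cells were covered by 5 lists, beside 0.719% of all genes called higher and 0.263% called lower. Of 19 cytokines and chemokines 1 was called higher (Spp1) and of 26 TNF superfamily genes 1 (Tnfrsf9). The cytokine receptor and STAT list had 2 called higher among 41 (Pim2 and Myc). The chemokine and lipid trafficking receptor list had 1 among 23 (Rgs16). Each of these lists had 0 called lower. Pim2, Myc and Rgs16 encode a kinase, a growth regulator and a regulator of G protein signaling, so no receptor or STAT gene of these last lists was called. The maturation and residency markers had 1 called higher (Itgad) and 1 lower (Ly6c2) among 29. The medians were −0.07 for cytokines and chemokines, 0.06 for cytokine receptors and STAT, −0.01 for the TNF superfamily, −0.04 for trafficking receptors and −0.03 for maturation markers. Immediate early genes had 1 call among 28, Egr1, and here control 4 stood apart, with Fos at 83.9 against 924 to 1650 normalized CPM in the other controls and Jun at 105 against 815 to 939. Control 4 was also the lowest control for Cd69, at 60.4 against 189.5 to 502, and for Ifng, at 59.3 against 253 to 373. Their part in the result was not tested.

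**Figure D4:**
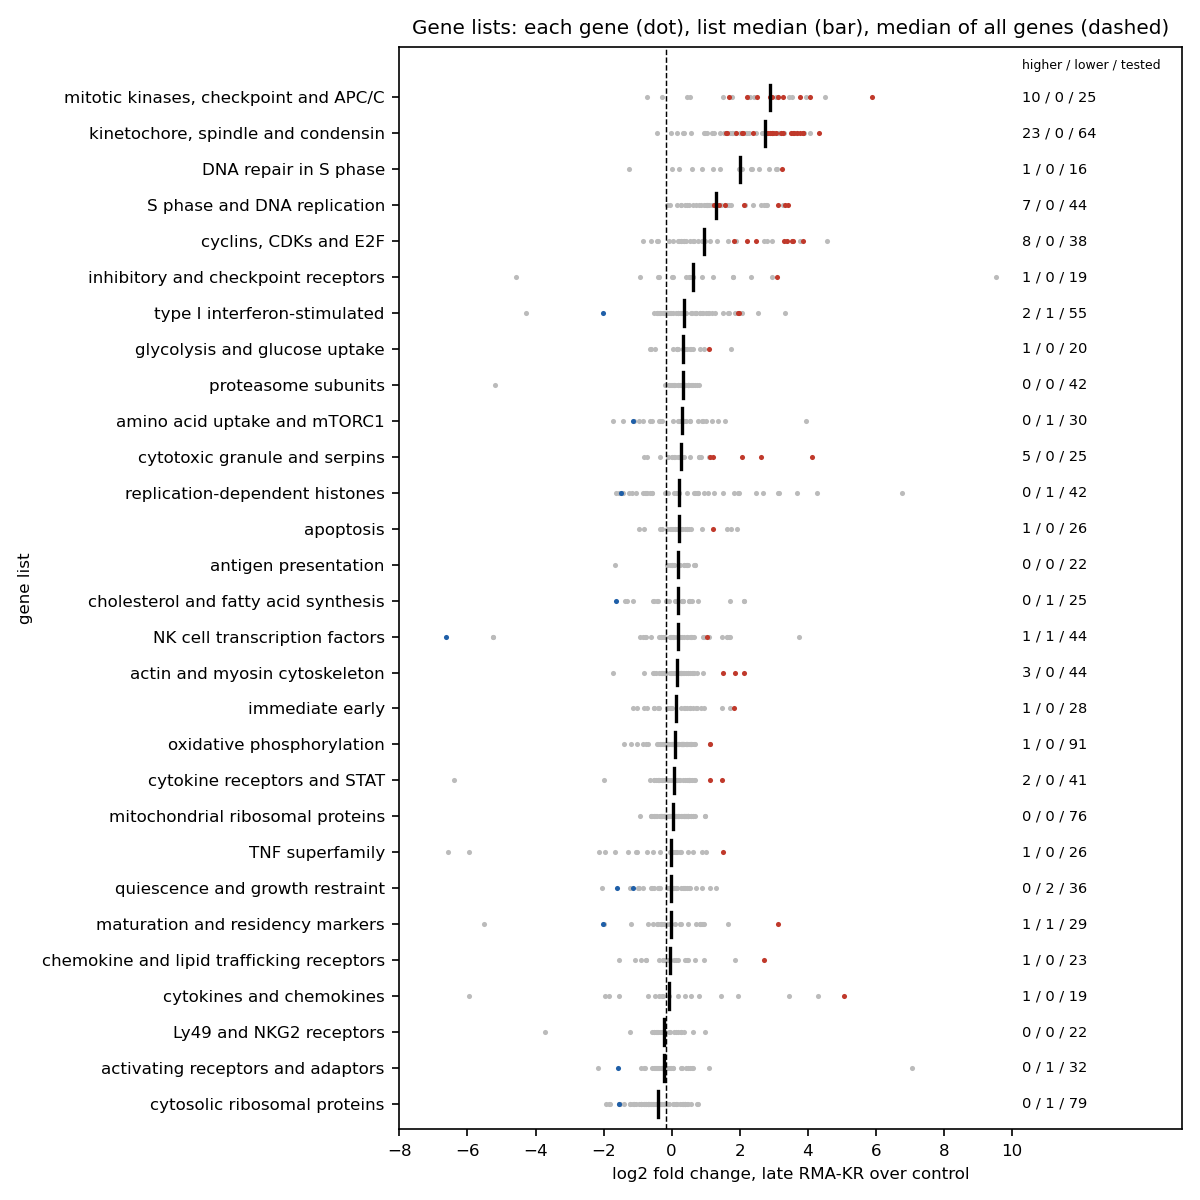
Log2 fold change of late RMA-KR over control (x axis) for each tested gene of 29 lists (rows), with called genes in red and blue, list medians as black bars and the median of all genes, −0.18, as a dashed line. Of the lists shown, the 5 cell cycle lists have the highest medians, from 0.94 to 2.88, and cytosolic ribosomal proteins the lowest, −0.39, and numbers at the right give genes called higher, called lower and tested.

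The earlier RMA-KR samples show when these levels were reached, and no test was run between the days. The day 7 libraries were uneven for some genes. Cd69 was at 380 and 359 in RMA-KR intermediate 1 and 2 and at 103, 90.8 and 120 in 3 to 5. Kcnj8 was at 144 and 201 in the former and 48.5, 56.3 and 28.0 in the latter. Day 7 means pool these libraries. Over the 45 lowered genes, the median of the group means was 126 normalized CPM in controls, 95.58 on day 2, 96.05 on day 7 and 42.6 on day 14. The late mean was the lowest of these 4 in 43 of the genes, all but Lasp1 and Hist1h1e. The genes were chosen by their late level, so a late mean at the extreme is largely set by that choice. In 19 genes the day 2 mean, and in 19 the day 7 mean, was already closer to the late level than to the control level. Cdh22 was among them, at 27.2 ± 11.1 (SD, n = 3) on day 2 and 21.02 ± 10.4 (SD, n = 5) on day 7. Cd226 was not, at 94.2 ± 6.02 and 106 ± 29.8, close to its control level of 94.4 ± 24.4 (SD, n = 4). Sdc4 likewise stood at 48.8 ± 9.05 and 39.5 ± 14.6 before the late value of 6.00 ± 6.75 (SD, n = 3). Txnip was at 617 ± 56.2 and 467 ± 109, between control and late levels.

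The raised genes were chosen in the same way, by their late level. Over the 49 cycle genes the medians were 10.97 in controls, 19.96 on day 2, 19.8 on day 7 and 100.2 on day 14, with the late mean the highest in all 49. The mean was closer to the late than to the control level in 1 gene on day 2 and in 2 on day 7. Over the other 74 raised genes the medians were 30.3, 42.0, 53.7 and 113, and the late mean was the highest in all but Tnfrsf9. Tnfrsf9 was at 210.1 ± 16.8 (SD, n = 3) on day 2 and 596 ± 186 (SD, n = 5) on day 7, against 552 ± 174 (SD, n = 3) on day 14. Serpine2 stood at 8.15 ± 2.45 and 52.5 ± 19.4, below each late library. Tigit was at 100.5 ± 27.5 and 122 ± 21.1, close to the control level of 84.4 ± 30.3 (SD, n = 4).

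**Figure D5:**
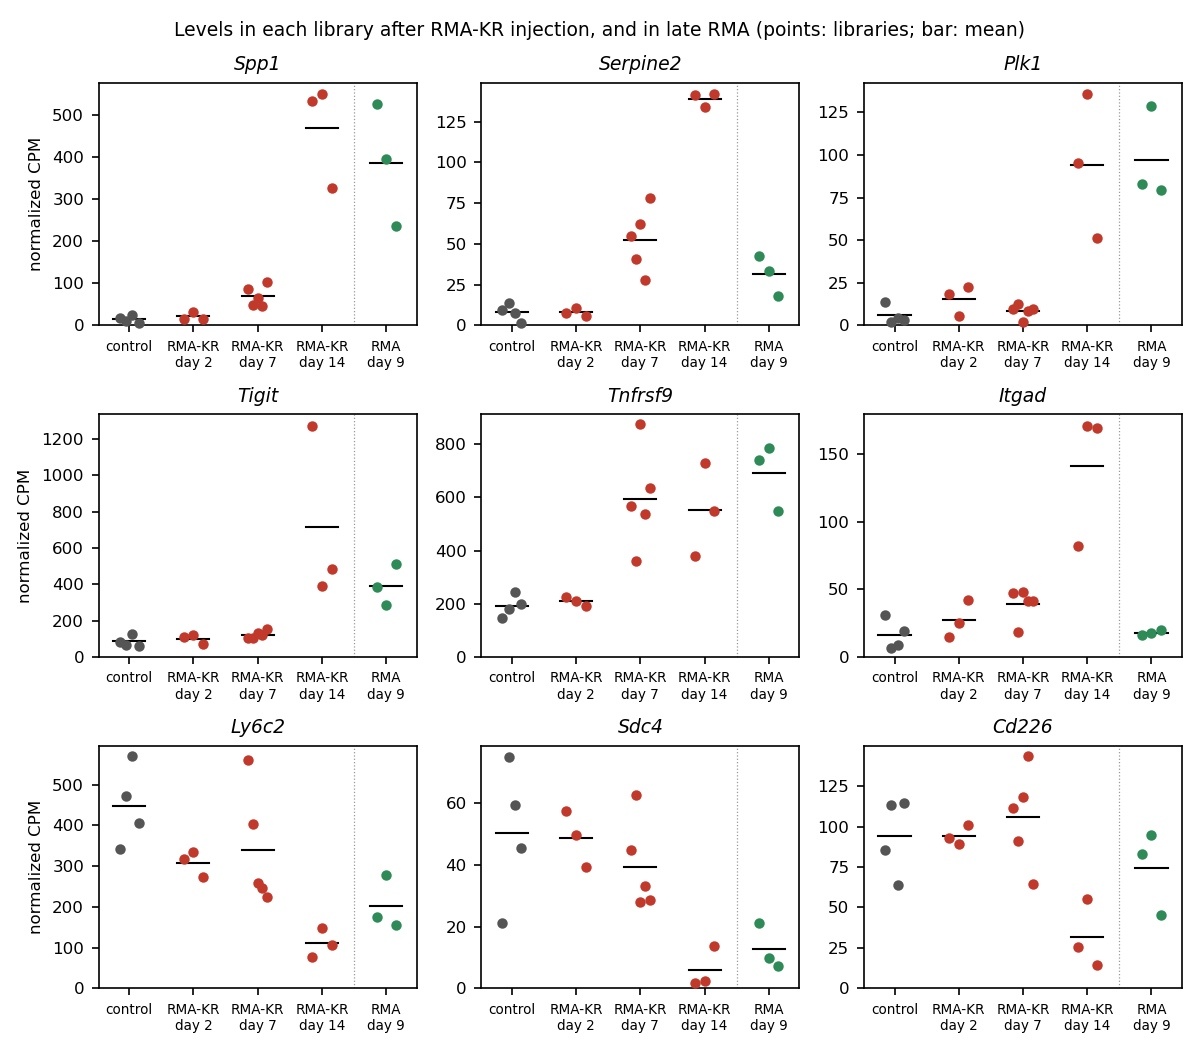
Normalized CPM (vertical axes, linear) of 9 called genes in controls (grey), in RMA-KR on days 2, 7 and 14 (red) and in late RMA on day 9 (green), with points for libraries and bars for means. Tnfrsf9 is near its late level on day 7 (596 against 552 normalized CPM), while Cd226 is at 106 on day 7 and 31.6 on day 14.

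Late RMA, sampled on day 9 after injection of RMA cells, which also expressed ZsGreen, was the other late group. Tumor and day cannot be told apart in this pair. Between them 0 of 17097 genes (0%) were called by edgeR, 1249 had an unadjusted p under 0.05, and DESeq2 called 56 with its default settings and 12 with betaPrior=TRUE. Without RMA-KR late 2, edgeR called 2. The values against control are given side by side, and both comparisons use the same 4 controls. For the 45 lowered genes late RMA-KR had a median log2 fold change of −1.52 and late RMA of −1.02, and 18 of them were also called in late RMA, where 306 of all 17097 genes were called (1.79%). For the 49 raised cycle genes the medians were 3.06 and 3.43 with 48 called in late RMA, and for the other 74 raised genes 1.67 and 1.57 with 47 called. The genes were chosen by their values in late RMA-KR with the same controls, so no value for these counts under no change is given.

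Single genes differed in their values against control. Cd226 was at 74.4 ± 25.8 (SD, n = 3) normalized CPM in late RMA, a log2 fold change of −0.34 (adjusted p = 0.776) against control, and the difference of late RMA-KR from late RMA was −1.23 (adjusted p = 0.655, SE 0.40). Mylip had a value of −2.10 (adjusted p = 0.000288) in late RMA and a difference of 0.71 (adjusted p = 0.655, SE 0.29). Itgad was at 17.6 ± 1.76 (SD, n = 3) in late RMA, with 0.13 (adjusted p = 0.959) against control and the largest difference named here, 3.00 (adjusted p = 0.328, SE 0.59). Gm4956 was at 167 ± 9.69 (SD, n = 3), with a difference of 1.03 (adjusted p = 0.328, SE 0.21) and every late RMA-KR library above every late RMA library. For Phf1 and Zgpat the 2 comparisons gave −1.90 (adjusted p = 0.00296) and −1.09 (adjusted p = 0.00548) in late RMA, with differences of 0.11 (adjusted p = 0.986, SE 0.35) and −0.04 (adjusted p = 1, SE 0.22). None of these differences passed the adjusted p.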

How the data were processed

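The values used were raw counts of reads per gene, deposited by the authors. The authors trimmed reads with cutadapt 1.10, discarded reads matching ribosomal RNA with Bowtie2 2.2.8, aligned to mm10 with STAR 2.5.3a and counted with htseq-count 0.6.1p1 in union mode on Ensembl 96. Whether reads were counted by strand is not stated. The deposited table held 45237 genes in 112 columns, of which 24 count columns were used. A further 48 columns in all, with counts per library normalized by the authors or normalized and divided by transcript length, and 29 columns of the authors' comparisons, with fold changes and p-values, were not used.

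The 24 libraries were fitted together in edgeR 4.0.16 under R 4.3.3, with 1 mean for each of 7 groups, filterByExpr, TMM factors and the robust quasi-likelihood test. Of the 45237 genes, 17097 were tested. Alternatives were DESeq2 1.42.0 with default settings and with betaPrior=TRUE, DESeq2 size factors in edgeR, a fit of all genes unfiltered, a minimum of 10 counts in each library, non-robust dispersion, only the 7 libraries compared, the replicate number as a block and leaving out each library. Scripts were tested on simulated data. The libraries and the gene lists were chosen with earlier results of these data known.

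Named genes are, among called genes without overlap, the 15 highest and 15 lowest log2 fold changes and the 8 of highest mean level in each direction. Called members of the lists, up to 6 per list, genes the study names or measured as proteins, and cell type markers complete the rule.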

Additional observations from a re-analysis of the deposited data

Results flagged for a closer look

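In 8 of the 92 named genes 1 control library stood apart from the other controls, by a gap to its neighbor that chance alone reaches in about 1 in 20 groups of 4 values. Havcr2 was at 0.0964 normalized CPM in control 2 and 0 in the others. Ccnb1 was at 5.48 in control 3, against at most 1.66 in the others. Cdca3 was at 0.982 in control 4, against 8.29 or more. Cenpf, at 20.7, and Birc5, at 24.6, were highest in control 1, against at most 2.32 and 8.43 in the others. Usp18 was at 55.9 in control 3, against at most 23.3. Arhgap4 was at 506 in control 4, against at most 344. Kdelc1 was at 9.69 in control 3, against at most 2.96. Among 9 genes compared in the intermediate RMA-KR group, Itgad was at 18.5 in RMA-KR intermediate 2, against 41.4 or more in the other libraries of that group. The cause of these values was not tested.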

How the results depend on the processing

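The labels name no mouse for a library, and only 3 late RMA-KR libraries were compared. The number of calls differed between settings, and the cause was not tested. Leaving out 1 library gave 71 to 152 called genes, 51 to 129 higher and 20 to 58 lower, and 0 to 2 between late RMA-KR and late RMA. DESeq2 with default settings called 483 genes, 237 higher and 246 lower, and 56 between the late groups. With betaPrior=TRUE it called 359, 228 higher and 131 lower, and 12 between the late groups. Without a filter on low counts edgeR called 394, 269 higher and 125 lower, and 28 between the late groups, and with at least 10 counts in each library 202, 124 higher and 78 lower. The replicate number as a block gave 100 calls, 73 higher and 27 lower, and 0 between the late groups. The numbers do not pair the groups, since the correlation across genes between libraries of the same number was −0.005, 0.043 and −0.03. Only the 7 libraries compared gave 118, 95 higher and 23 lower, with 87 of the 168 genes still called, and the late groups could not be compared in that fit. Non-robust dispersion gave 159 calls, 120 higher and 39 lower, and DESeq2 size factors in edgeR 173, 129 higher and 44 lower. Of the named genes not called in the main fit, Havcr2, Lag3 and Mki67 were called by DESeq2 with default settings and without a filter, Lag3 and Mki67 with betaPrior=TRUE, and Havcr2 and Lag3 with only the 7 libraries. Across all settings 33 raised and 4 lowered genes stayed called, and no called gene changed sign.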
